A study of Mus musculus with 138 samples.

Results

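Most of the genes described here build and run motile cilia, the beating hairs of airway cells. They were taken by target name from the scanner table of the array: names of dynein arm chains (DNAH with a digit, DNAIC, DNALI), tektins (TEKT), radial spoke heads (RSPH), intraflagellar transport (IFT), sperm-associated antigens (SPAG), Bardet-Biedl genes (BBS), ROPN1, CCDC39, CCDC40 and FOXJ1. To count as detected a probe needed a p-value for detection below 0.05, and 14 or more of the 138 mice had to show this. The rule matched 62 probes of 31 target names. Of these, 46 probes of 26 genes passed, out of 24450 probes and 16621 genes kept in all. The 5 target names that did not pass were IFT57, ROPN1, ROPN1L, SPAG11 and SPAG4L. Tekt3 was just inside the limit, detected in 14 mice, and the next below it, the best probe of SPAG4L, was detected in 2. No target name on the array matched DNAH with a digit or RSPH. Genes of those kinds carry older names there. The radial spoke gene Rsph4a is named below as a gene outside the rule. Dynein heavy chains were listed only together with arm factors, where Dnah5 and Dnah10 were not kept, and none is named below.

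The study measured RNA of whole lung on Illumina WG6v2 bead arrays, 1 array per mouse and 1 mouse from each of 138 partially inbred lines of the pre-Collaborative Cross. The lines, whose names start with OR, descend from 8 founder strains: WSB/Ei, PWK/Ph, NZO/H1LtJ, NOD/LtJ, CAST/Ei, C57BL/6J, A/J and 129S1/SvImJ. Every mouse was sensitized by intraperitoneal injection of 10 ug of Der p 1, a house dust mite allergen, challenged with 50 ug on day 15 and harvested on day 18, 72 hours later. The samples used here hold no untreated mice and no second group, so nothing here shows an effect of the allergen, and every comparison is across mice. Age and sex are not given in the sources used here. With 1 mouse per line, the spread between mice holds line, animal and array together.

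On each array 19075 to 21472 of 45281 probes were detected. The 138 mice carry a number at the end of their titles whose meaning is not stated. The numbers fall into a high range (65 mice) and a low range (73 mice), which were treated as a possible batch. For 2 mice the title and the strain label name different lines. The strain label was used, and results were also computed without both mice. Levels are the deposited log2 intensities, on which an undetected probe typically reads 5.168. Levels of different probes are not compared. Where a gene had several kept probes, the one of highest mean stands for it.

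A motile cilium is a bundle of microtubule doublets around a central pair, the axoneme. Dynein arms on the doublets pull neighbouring doublets past each other and so bend the cilium. Its parts are carried in by intraflagellar transport, the BBSome moves membrane proteins, and in multiciliated airway cells the transcription factor FOXJ1 turns on many of the genes. In lung most such cells line the conducting airways, beside club and goblet cells. In RNA of whole lung, fewer cells of a type and less RNA per cell cannot be told apart.

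Among the 9 genes of the axoneme and its assembly, the SD between mice stood from the 9.3 percentile of all genes (Tekt3) to the 88.3 percentile (Spag6). Tekt1, a tektin inside the doublets, had a lowest level of 7.6, a median of 8.995 and a highest of 10.3 log2 over the 138 mice. Dnali1, a light intermediate chain of the inner dynein arm, ran from 7.23 through a median of 8.63 to 10.0. SPAG6, a protein of the central pair, ran from 8.05 through 9.08 to 10.8. None of the 3 fell into 2 separated levels by the mixture described below. The array's SPAG6 target may belong to Spag6 or to its close relative Spag6l, which the files do not settle.

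From the 5th to the 95th percentile of mice, Dnali1 spanned a 3.73-fold range, Spag6 3.69-fold and Tekt1 3.39-fold. Ccdc39, which with Ccdc40 sets the spacing of dynein arms along the doublet, ran from 5.64 through a median of 6.59 to 7.54 log2, a 2.53-fold range between the same percentiles. Dnaic1, an intermediate chain of the outer dynein arm, ran from 6.72 through 7.68 to 8.73. Spag8, a protein inside the doublet, ran from 5.56 through 6.385 to 7.51. Spag1, needed to assemble dynein arms in the cytoplasm, ran from 5.52 through 6.575 to 7.51. None of these 4 fell into separated levels either.

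Foxj1 itself varied less. Its lowest, median and highest levels were 6.15, 6.55 and 7.41 log2, a 1.64-fold range between the same percentiles, and its SD of 0.23 stood at the 33.1 percentile of all genes. Intraflagellar transport genes were mostly narrow too. Ift88 ran from 6.82 through 7.385 to 8.13, Ift172 from 9.44 through 10.2 to 11 and Ift20 from 11.1 through 11.5 to 11.9. By their representing probes Ift81 was the widest of the 6, from 6.75 through 8.65 to 9.47, with an SD of 0.47. This order depends on the probe. The remaining Ift81 probes had SDs of 0.265 and 0.249. The remaining Ift20 probes had 0.454, from 6.68 to 9.11, and 0.231.

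Over all 26 members the median SD was 0.313 log2, against 0.287 for all genes kept. An SD over 0.5 was found in 6 of 26 members (23.1%), against 16.7% of all genes, and, with values renormalized from the scanner intensities by limma's neqc, in 9 of 26 (34.6%), against 25.6%. The 6 in the deposited values were Spag11b, Spag5, Spag6, Bbs4, Dnali1 and Tekt1. Spag11b, a defensin-like gene of the epididymis, was detected in 30 mice only, and its median of 5.265 log2 lay near the level of an undetected probe while its highest was 8.6. Of the 26 members, 16 were detected in all mice, and 4 in fewer than 100: Bbs1 in 78, Spag4 in 86, Spag11b in 30 and Tekt3 in 14.

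**Figure D1:**
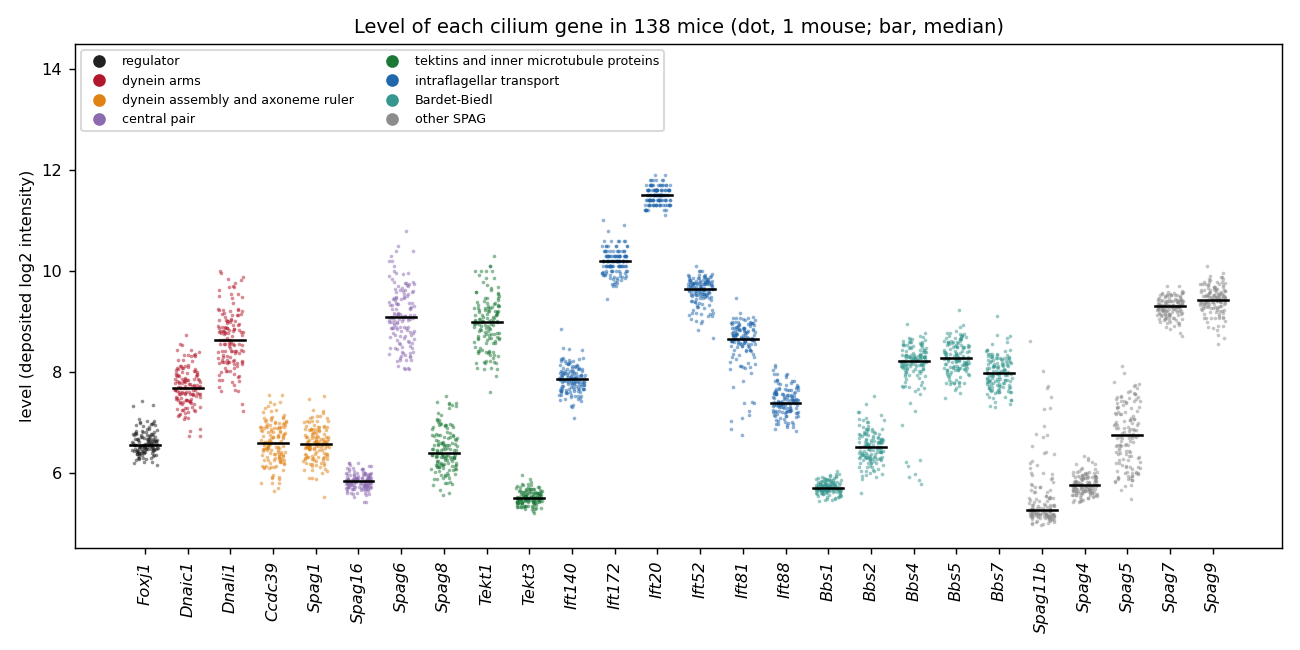
Level of each of the 26 genes in every mouse, in deposited log2 intensity, grouped by role; each dot is 1 of 138 mice and each bar the median. Tekt1, Dnali1 and Spag6 spread over more than 2 log2, while Ift20 spans 11.1 to 11.9 and Tekt3 lies near the level of an undetected probe; levels of different probes are not comparable.

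To ask whether the members vary with the amount of ciliated cell transcript, each gene was fitted on a ciliated marker score. The score is the mean z value of 24 ciliated cell markers, among them Dynlrb2, Pifo, Cfap126 and Odf3b, none of which the rule takes. Of 33 markers listed, 28 were on the array and these 24 were kept. Those named followed the score most closely. Over the 24 markers r with the score ran from 0.235 for Sntn, detected in 52 mice, to 0.926 for Pifo. Tppp3 had 0.336 and Fam183b 0.338. Of 26 members 20 rose and 0 fell, while over all genes tested 6.28% rose and 3.04% fell. The median slope was 0.129 log2 per SD of the score for members and 0 for all genes, and the median r was 0.475 and -0.002.

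All 9 members of the axoneme and its assembly rose. Dnali1 had the steepest slope, 0.45 ± 0.03 log2 per SD (SE, n = 138; adjusted p = 8.92e-29, limma over all genes). Tekt1 followed at 0.43 ± 0.03 (adjusted p = 1.4e-33), Spag6 at 0.40 ± 0.04 and Ccdc39 at 0.31 ± 0.02. Spag8 rose by 0.307, Dnaic1 by 0.26 and Spag1 by 0.207 per SD. The smallest slopes of the 9 belonged to Spag16, a central pair protein, at 0.052 (adjusted p = 0.00102) and Tekt3 at 0.065 (adjusted p = 3.09e-07), both on faint probes.

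Foxj1 rose as well, with a slope of 0.123 (r = 0.537, adjusted p = 7.89e-10). Of the 6 intraflagellar transport genes 4 rose. Ift88, a core subunit of the IFT-B train, had a slope of 0.185 (r = 0.693, adjusted p = 8.95e-19), Ift172 0.134, Ift140, of the returning IFT-A train, 0.123, and Ift20, which also works at the Golgi, 0.045 (adjusted p = 0.0187). Ift52 had a slope of 0.032 (adjusted p = 0.408) and Ift81 one of 0.098 (adjusted p = 0.105), neither past the threshold of 0.05.

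All 5 Bardet-Biedl genes, which encode subunits of the BBSome, rose. Bbs5 had a slope of 0.217 (r = 0.701, adjusted p = 1.81e-19) and Bbs7 0.18 (adjusted p = 2.45e-11). Bbs4, whose probe had 2 separated levels, had 0.153, Bbs2 0.082 and Bbs1 0.049. The calls of Bbs2 (adjusted p = 0.0291) and Bbs4 (adjusted p = 0.0199) were lost without the 2 mice farthest from the median of the score, at adjusted p = 0.0761 and 0.104, as was that of Ift20 (adjusted p = 0.0777).

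Of the 5 other SPAG genes only Spag5, a protein of the mitotic spindle, passed, with a slope of 0.145 (adjusted p = 0.0404), and its call was lost with values renormalized from the scanner intensities (limma's neqc; adjusted p = 0.0515). Spag4, of the SUN family of the nuclear envelope, had a slope of -0.019, Spag7 0.023, Spag9, a scaffold of JNK signalling, 0.013 and Spag11b -0.022. Of the 6 members without a call, 4 were thus among the 5 other SPAG genes.

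**Figure D2:**
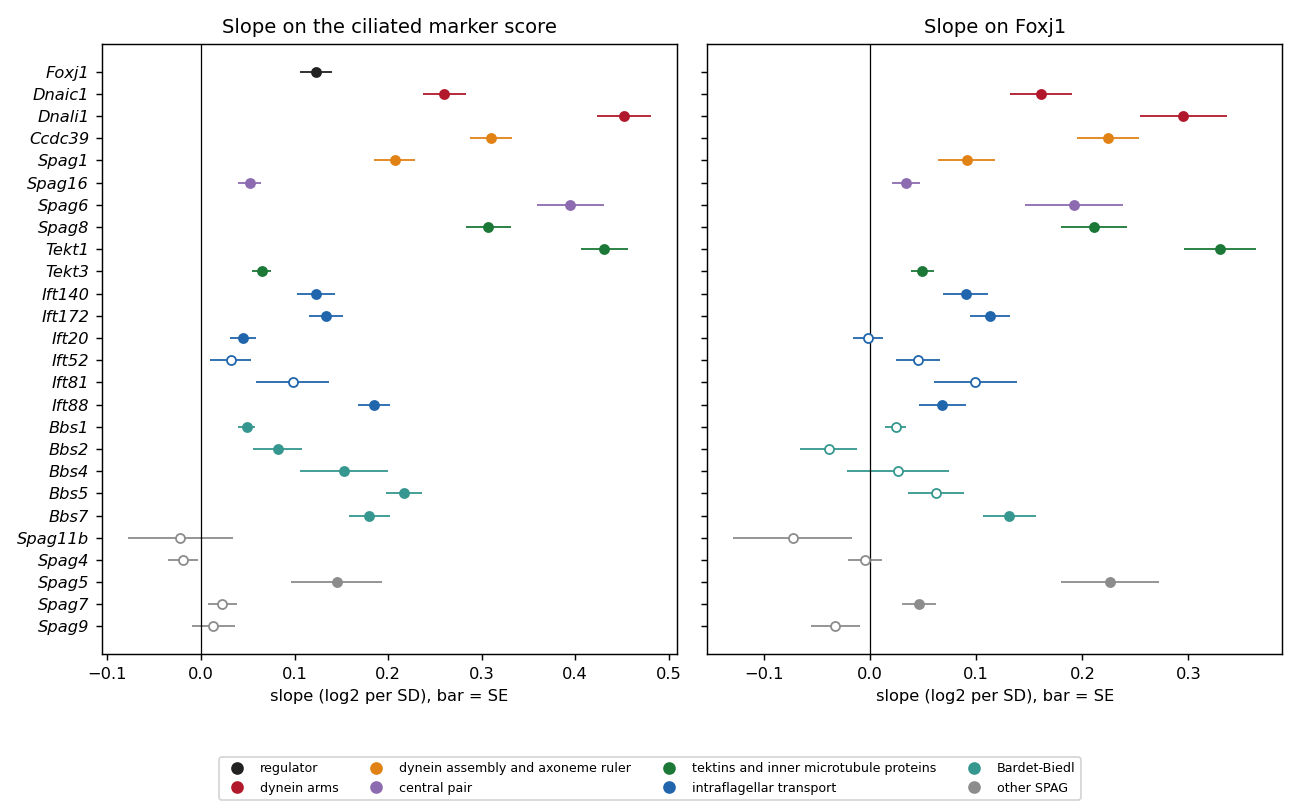
Slope of each gene on the ciliated marker score (left) and on the level of Foxj1 (right), in log2 per SD with its SE over 138 mice, coloured by role; filled points passed an adjusted p of 0.05. Dnali1, Tekt1 and Spag6 have the largest slopes on the score, and 4 of 5 other SPAG genes lie near 0.

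RFX factors bind the X-box, a motif that many cilium genes hold near their start. Promoter windows of RefSeq (assembly GRCm38.p6), from 250 bases before to 50 after a gene start, were found for 22 of the 26 members in 24 windows. The letters GTTGCC, the arm of the X-box, were searched on both strands. They were in 10 of 24 member windows (41.7%), against 12.51% of all 32851 windows. The 10 genes were Bbs1, Bbs5, Bbs7, Ift140, Ift172, Ift88, Spag16, Spag6, Spag8 and Tekt1, and all 10 had risen with the ciliated marker score. Of the 12 matched members without these letters 8 had risen, Dnali1, the steepest, among them. The window of Spag6 counts only if the SPAG6 probe reads Spag6 and not Spag6l. The longer X-box palindrome, which is such an arm with any base in place of its inner G, a gap of any 2 bases and the reverse complement of the arm, can overlap the shorter motif. It was in the window of Bbs7 alone of the members, and in 0.45% of all windows. The forkhead motif TGTTTAC, also searched on both strands, was in that of Tekt3 alone, and in 3.65% of all windows. A match is a description of letters and not a measured site.

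The windows of Bbs7 and Tekt1 are shown because Bbs7 alone has the palindrome and Tekt1 has the motif in both directions close to its start and was among the steepest on that score. Both run 5′ to 3′ on the strand of the gene, and capitals mark the X-box arm or palindrome. Bbs7 lies at chr3:36613340-36613639 on the minus strand and Tekt1 at chr11:72361833-72362132 on the minus strand.
Bbs7: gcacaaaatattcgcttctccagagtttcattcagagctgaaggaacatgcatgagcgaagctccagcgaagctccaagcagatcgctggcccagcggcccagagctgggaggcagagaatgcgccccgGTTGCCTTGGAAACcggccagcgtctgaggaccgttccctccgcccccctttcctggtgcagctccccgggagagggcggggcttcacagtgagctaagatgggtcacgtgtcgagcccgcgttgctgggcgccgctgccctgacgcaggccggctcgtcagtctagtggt
Tekt1: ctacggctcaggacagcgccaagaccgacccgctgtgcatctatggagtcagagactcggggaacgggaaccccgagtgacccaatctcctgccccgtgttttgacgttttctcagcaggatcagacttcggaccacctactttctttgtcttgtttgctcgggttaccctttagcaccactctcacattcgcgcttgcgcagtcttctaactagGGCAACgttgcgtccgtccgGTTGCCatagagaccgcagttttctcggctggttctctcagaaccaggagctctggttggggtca

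The motif and 10 bases on either side are shown for other members whose windows hold it, so that the flanks can be compared. Capitals mark GTTGCC, or GGCAAC where it lies on the opposite strand. They lie at chr14:57424082-57424107 (plus strand) for Ift88, chr5:31291099-31291124 (minus) for Ift172, chr17:25015967-25015992 (plus) for Ift140, chr19:4906611-4906636 (minus) for Bbs1, chr4:43653552-43653577 (minus) for Spag8 and chr1:69826857-69826882 (plus) for Spag16.
Ift88: agtcgcgcctGGCAACggctgggcgt
Ift172: tcgcactcacGTTGCCtgtgcgtcag
Ift140: gtgttgtgacGGCAACctcgcgccct
Bbs1: ggctgagctgGTTGCCaaggcgacgc
Spag8: ccgtctctatGGCAACccgggaggtg
Spag16: taggcaacgcGTTGCCgtagtaactg
In Spag16 the flank holds a second copy in the opposite direction. Ift88, Ift172 and Bbs1 have the motif at or just after the gene start, 21, 0 and 1 bases from it, where 0 is the first base of the gene. The slopes of these 6 genes on the ciliated marker score ran from 0.049 for Bbs1 to 0.307 for Spag8.

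The mice at both ends of the score show the size of these differences. The line OR867 had the highest score, 2.68 SD. Its lung had 9.85 log2 of Tekt1, 9.88 of Dnali1, 9.96 of Spag6 and 7.05 of Ccdc39, and 19 of 26 members were in the upper 25% of mice. In OR3443, next with a score of 2.23, Tekt1 was 9.99, Dnali1 8.94 and Spag6 9.69, and 17 members were in the upper 25%. At the other end OR1427 scored -2.67, with 8.47 log2 of Tekt1, 7.63 of Dnali1, 8.35 of Spag6 and 6.31 of Ccdc39, and 20 of 26 members were in the lower 25%. OR5087 scored -2.35, with 7.92 of Tekt1 and 7.96 of Dnali1, and had 17 members in the lower 25%. These are the 2 highest and the 2 lowest scores, and no member entered the score. Some members lay in the opposite 25% of mice: 3 in OR867, 2 in OR3443, 1 in OR1427 and 2 in OR5087. The share of all genes in the upper or lower 25% was not computed for these mice. Whether the counts are particular to the members was thus not tested. The same mice also differed in club cell markers. Their club scores were 3.68 in OR867, 1.0 in OR3443, -2.11 in OR1427 and -3.78 in OR5087.

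Some markers of other cells moved with the score too, while over all genes tested 6.28% rose and 3.04% fell. Of 11 club cell markers 6 rose and 0 fell, of 9 mucous markers 3 rose, of 6 basal and tracheal epithelium markers 2 rose (Krt18 and Krt19), and of 8 cardiac muscle markers 2 rose (Ryr2 and Tnni3). Of 9 alveolar type 2 markers 1 fell, and no alveolar type 1 marker of 9, smooth muscle marker of 8 or proliferation gene of 11 passed. Of 16 type 2 immune genes 2 fell and 0 rose. None of 9 germ cell markers on the array was detected in enough mice to be kept. With the club, mucous and basal scores as covariates 18 of 26 members rose and 0 fell, against 5.16% and 1.16% of all genes. The club markers followed their own score only loosely, as given below. With the cardiac and smooth muscle scores 19 rose, against 6% of all genes, the call of Spag5 being lost at adjusted p = 0.095. Within the high title number range 16 of 26 rose in 65 mice, against 3.69% of all genes, and within the low range 14 of 26 in 73 mice, against 3.46%, with 0 members falling in either.

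Other genes of the cilium rose with the score as well. Of 10 other dynein heavy chains and arm factors tested 9 rose and 0 fell. Dnaaf1, a dynein assembly factor, rose by 0.451 log2 per SD (r = 0.87, adjusted p = 3.49e-40), Ccdc151, a docking factor of the outer arm, by 0.341 and Dnaaf3, another assembly factor, by 0.265. Of 25 genes outside the rule, from a list of ciliary kinesins, transition zone, BBSome and further ciliary transport genes, 19 rose and 1 fell. Nphp4 of the transition zone had the largest slope there, 0.292 (adjusted p = 2.36e-29), followed by Ttc30b with 0.252 and B9d1 with 0.226. Mkks, a chaperonin-like protein needed to assemble the BBSome, fell, with a slope of -0.077 (adjusted p = 0.0458). Of 9 multiciliogenesis regulators 6 rose and 1, Rfx7, fell (slope -0.044, adjusted p = 0.0472). Ccno, a cyclin needed to make many centrioles, rose by 0.498, Foxn4 by 0.238 and Rfx2, which binds X-box sites, by 0.148.

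Among genes outside the rule and the marker list, the 12 steepest that rose were Mdh1b, Scgb3a1, Gp2, Reg3g, Morn5, Ccno, Ccna1, Dnaaf1, Ltf, Prr29, Rsph4a and Lrrc34. Rsph4a, a radial spoke head protein that the array lists under an older name, rose by 0.428 log2 per SD (adjusted p = 8.05e-13). Scgb3a1, a secretoglobin of airway secretory cells, rose by 0.51 and Reg3g, an antimicrobial lectin, by 0.503. The 12 steepest that fell were Gbp2b, Rap1gds1, Sh3glb1, Snhg18, F7, Samsn1, H2-Q8, Ido1, F10, Cd2, Nkg7 and Aqp9. Gbp2b, an interferon-induced GTPase, had a slope of -0.467 (adjusted p = 0.0136) and Rap1gds1, an exchange factor of small GTPases, -0.39 (adjusted p = 0.0137). Both had 2 separated levels over the mice, as did Sh3glb1, Snhg18 and Samsn1 and, among those that rose, Mdh1b and Prr29. The coagulation factor F7 had a slope of -0.298 (adjusted p = 0.000214), Ido1, an interferon-induced enzyme, -0.243 and Cd2, of T cells and NK cells, -0.215 (adjusted p = 3.39e-06).

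To ask which members follow the regulator, each gene was fitted on the level of Foxj1. Of the other 25 members 15 rose with Foxj1 and 0 fell, while over all genes tested 11.2% rose and 8.38% fell. The median slope was 0.068 log2 per SD of Foxj1 for members and 0.003 for all genes. Tekt1 led with 0.33 ± 0.03 (SE, n = 138; r = 0.638, adjusted p = 7.68e-14), followed by Dnali1 with 0.295, Ccdc39 with 0.224, Spag8 with 0.211, Spag6 with 0.192 and Dnaic1 with 0.161. All 9 axoneme members passed, Spag16 least clearly (adjusted p = 0.0435).

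Of the 6 intraflagellar transport genes 3 rose with Foxj1: Ift172 with 0.113, Ift140 with 0.09 and Ift88 with 0.068. Ift81 missed by its representing probe (slope 0.099, adjusted p = 0.0602). Its remaining probes rose by 0.103 and 0.064 (limma adjusted p = 0.000119 and 0.018 over all probes). Of the 5 Bardet-Biedl genes only Bbs7 did, with 0.131 (adjusted p = 2.49e-05), and Bbs5 had a slope of 0.062 (adjusted p = 0.0798). Whether the Bardet-Biedl genes differ between the fits on Foxj1 and on the marker score was not tested. Spag5 (0.226) and Spag7 (0.046) also rose, but with the mean of the probes of a gene the calls of Spag7 (adjusted p = 0.711) and Spag16 (adjusted p = 0.123) were lost. Within the high title number range 8 of 25 members rose, against 3.6% of all genes, and within the low range 10, against 4.14%, with 0 falling. Foxj1 was read by 1 probe, detected in all 138 mice.

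Some genes of other cells also moved with Foxj1. Of 9 mucous markers 8 rose with it, Muc5ac by 0.598 and Muc5b by 0.489, and of 8 cardiac muscle markers 5 rose. Of 11 proliferation genes 6 rose, of 6 basal and tracheal epithelium markers 4, of 11 club cell markers 2, of 16 type 2 immune genes 2 and of 8 smooth muscle markers 1. Of 9 alveolar type 2 markers 2 fell and of 9 alveolar type 1 markers 1 fell. Over all genes tested 11.2% rose with Foxj1 and 8.38% fell. The counts of type 2 immune, smooth muscle and alveolar type 1 genes lay near these shares. With the club, mucous and basal scores as covariates 10 of 25 members rose with Foxj1, against 6.7% of all genes, and with the cardiac and smooth muscle scores 14 did, against 7.15%. Of the 24 ciliated markers 18 rose.

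Gene pairs chosen by function were tested over the 138 mice with 100000 permutations of one gene's values, two-sided, and adjusted over the 14 pairs with both genes kept, of 19 listed. Of these 11 passed. Foxj1 and Tekt1 correlated at r = 0.638 (rho = 0.634, permutation p = 1e-05, the smallest these permutations can give, adjusted p = 1.75e-05), and at r = 0.6 without the 2 mice farthest from the median of Foxj1. Within the high range r was 0.571 and within the low range 0.699. Ccdc39 and its partner Ccdc40 correlated at r = 0.668 (rho = 0.661, permutation p = 1e-05), at 0.667 without 2 mice. The dynein chains Dnali1 and Dnaic1 correlated at r = 0.537 (rho = 0.551), and at 0.551 without 2 mice, with permutation p = 1e-05. The IFT-A subunits Ift122 and Ift140 correlated at r = 0.484 (rho = 0.426, permutation p = 1e-05) and the central pair proteins Spag6 and Spag16 at r = 0.291 (rho = 0.284, permutation p = 0.00061). The 3 pairs that did not pass were Bbs1 with Bbs4 (r = 0.168, permutation test adjusted p = 0.0574), Bbs2 with Bbs7 (r = 0.138, adjusted p = 0.114) and Foxj1 with Bbs4 (r = 0.046, adjusted p = 0.593). Bbs1 and Bbs4 differ by measure, since their rho of 0.238 passed (permutation p = 0.0052, adjusted p = 0.00662). The Bbs4 probe had 2 separated levels, and their part in its correlations was not tested.

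As a description over the same mice and arrays, the 325 pairs of members had a median r of 0.191, against 0.001 for all pairs of kept genes. An r over 0.5 was found in 38 pairs (11.7%), against 1.01% of all pairs. The highest were Ccdc39 with Tekt1 (0.839), Spag8 with Tekt1 (0.773) and Dnali1 with Tekt1 (0.761). Among the 9 axoneme genes the median r was 0.47 and the lowest 0.195. It was 0.157 among the 6 intraflagellar transport genes, where Ift140 and Ift172 stood apart at 0.575, and 0.168 among the 5 Bardet-Biedl genes. The axoneme genes correlated with the Bardet-Biedl genes at a median r of 0.318, with the transport genes at 0.249 and with the other SPAG genes at 0.027. The other SPAG genes had a median r of -0.006 among themselves. The lowest pair was Spag4 with Spag9 at -0.242.

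**Figure D3:**
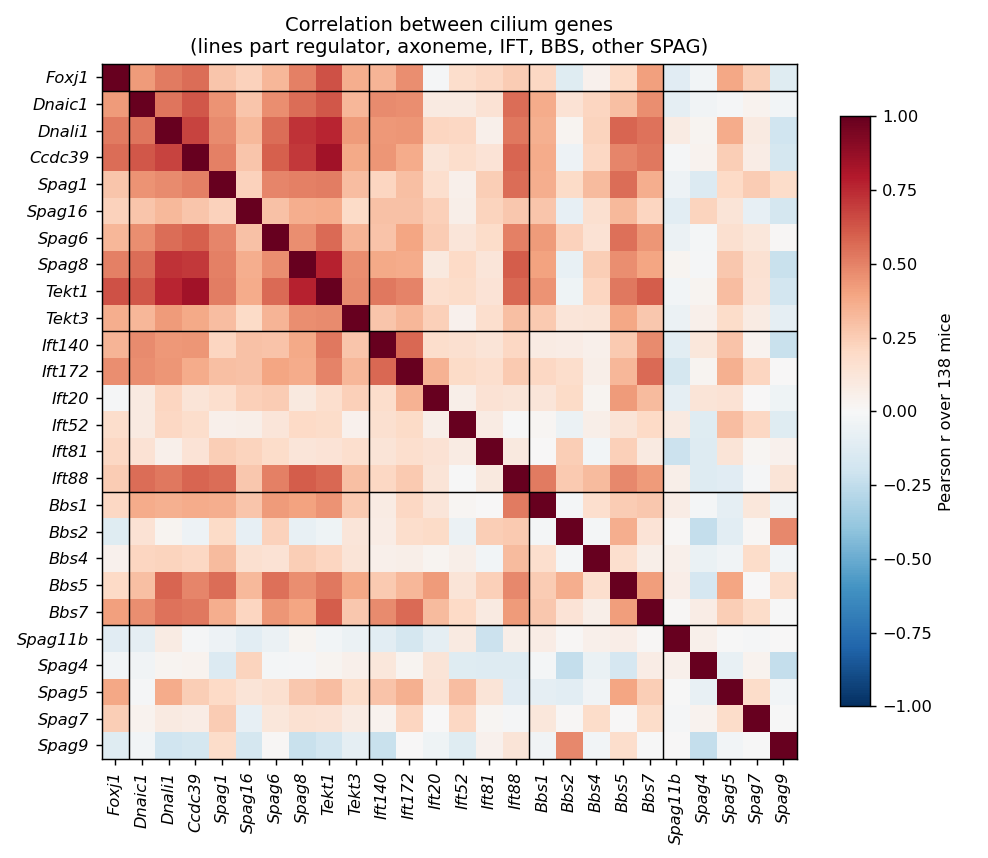
Pearson r between the 26 genes over 138 mice, ordered by role, with lines between regulator, axoneme, intraflagellar transport (IFT), Bardet-Biedl (BBS) and other SPAG genes. The axoneme block is red throughout (lowest r 0.195), Ift88, Bbs5 and Bbs7 run with it, and the other SPAG block is pale.

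On the club cell score 16 of 26 members rose and 0 fell, against 5.3% and 3.51% of all genes. Spag6 rose by 0.234, Dnali1 by 0.228 and Tekt1 by 0.21 log2 per SD. Club and ciliated scores correlated at r = 0.567. With the ciliated marker score as a covariate, an alternative added after the data were seen, 0 of 26 members passed on the club score in limma, where 0.554% of all genes rose and 0.674% fell. Of the members 6 had an unadjusted p under 0.05, and the slope of Tekt1 was -0.051 (adjusted p = 0.412). On the ciliated marker score with the club, mucous and basal scores beside it, 18 of 26 passed, as given above. The club markers followed their own score at r from 0.17 (Scgb1a1) to 0.597 (Chad), against 0.235 to 0.926 for the ciliated markers. The adjustments thus cannot be weighed against each other, and whether members follow ciliated rather than club cells was not tested. On the club score 14 of 26 rose within the high title number range, against 2.87% of all genes, and 1 within the low range, against 0.969%.

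On the mucous score, built from 9 markers of mucus-producing cells such as Muc5ac and Muc5b, 3 of 26 members rose and 1 fell, against 12.3% and 11.2% of all genes. Foxj1 rose by 0.087 log2 per SD (adjusted p = 0.000161), Ift172 by 0.083 and Spag5 by 0.208, and Spag11b fell, with a slope of -0.147. Tekt1 had a slope of 0.093 (adjusted p = 0.107), Dnali1 0.102 (adjusted p = 0.108) and Ccdc39 0.039 (adjusted p = 0.442). Without the 2 mice of conflicting labels 6 members rose, against 12.7% of all genes. Within the high range 2 rose, against 5.16% of all genes, and within the low range 1, against 4.35%, with 0 members falling in either.

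On the type 2 immune score, built from 16 genes such as Il4, Il5, Il13 and Ccl11 of the allergic response, 1 of 26 members rose and 4 fell, against 12.6% and 13.2% of all genes. Dnaic1 fell, with a slope of -0.13 log2 per SD (adjusted p = 0.000367), as did Ift88 with -0.095 (adjusted p = 0.000239), Bbs2 with -0.083 and Bbs1 with -0.035. Spag5 rose by 0.289 (adjusted p = 3.43e-08). With the ciliated marker score as a covariate Dnaic1 had a slope of -0.084 and Ift88 one of -0.062, both past the threshold. Tekt1 (-0.071) and Dnali1 (-0.066) did not pass. Within the high range 1 rose and 4 fell, against 10.1% and 9.1% of all genes. Within the low range 0 of 26 passed in limma, against 4.23% rising and 2.9% falling of all genes, and 4 had an unadjusted p under 0.05.

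Spag5 stood apart on the proliferation score, built from 11 genes. It had a lowest level of 5.48, a median of 6.735 and a highest of 8.12 log2, and rose by 0.51 ± 0.03 per SD of that score (SE, n = 138; r = 0.855, adjusted p = 1.77e-38). The slope was 0.573 within the high title number range and 0.437 within the low range, both past the threshold. Of all 26 members 7 rose and 3 fell, against 14.8% and 15.1% of all genes. The others that rose were Dnali1 (0.152), Tekt1 (0.109), Spag8 (0.104), Ift52 (0.091), Bbs5 (0.077) and Foxj1 (0.059), and Bbs2 (-0.131), Spag9 (-0.07) and Ift88 (-0.061) fell. These are slopes of the representing probes. Both Tekt1 probes rose, but the remaining Dnali1 probes had slopes of -0.015 and -0.019 (limma adjusted p = 0.516 and 0.629 over all probes). No other Spag9 probe passed, nor did the second Spag5 probe (slope 0.016, detected in 41 mice). Under older target names, a probe of Ift88 did not pass (slope -0.03, limma adjusted p = 0.303), and one of Ift52 rose by 0.053 (adjusted p = 0.0132). Within the high range 1 rose and 1 fell, against 11.4% and 9.33% of all genes, and within the low range 4 rose and 1 fell, against 8.96% and 8.75%. With the proliferation score as a covariate Spag5 had a slope of 0.117 on the ciliated marker score (adjusted p = 0.000114).

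**Figure D4:**
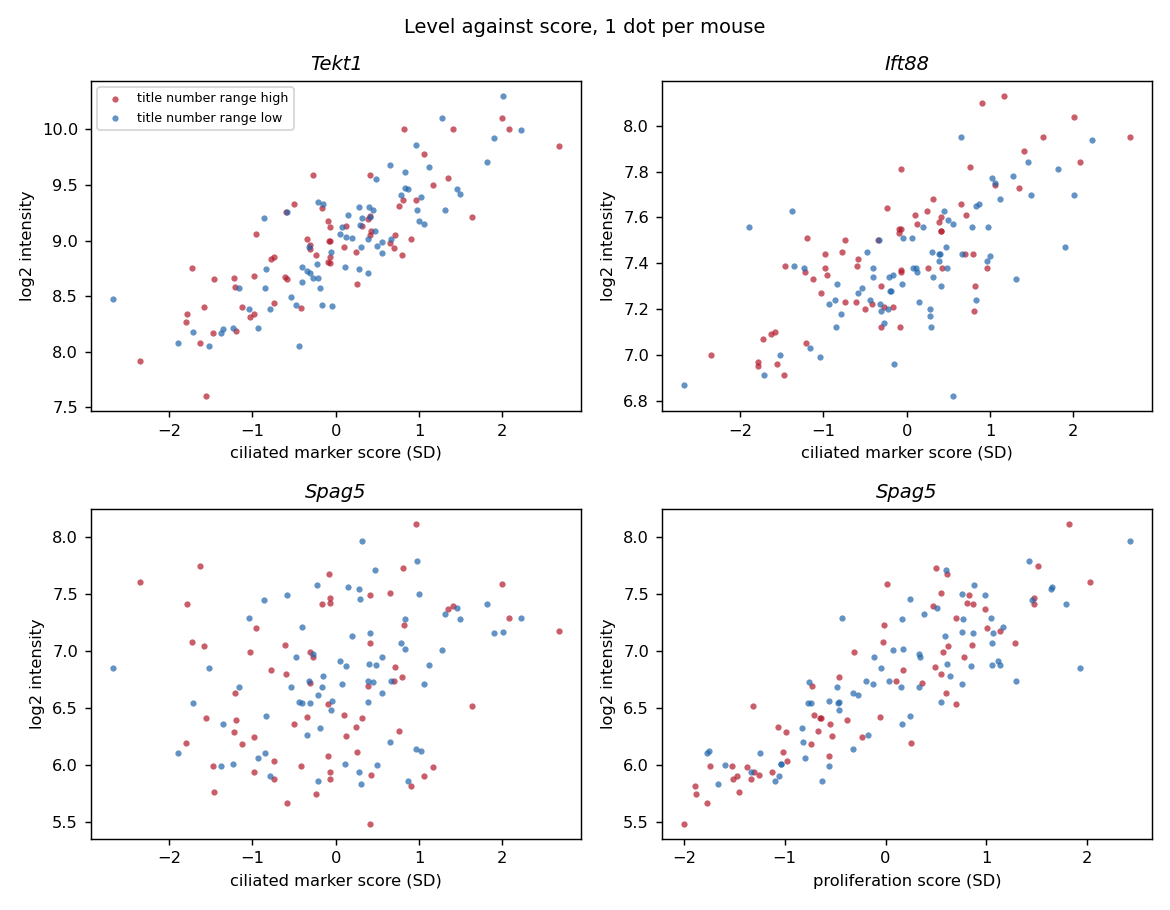
Level of Tekt1, Ift88 and Spag5 against the ciliated marker score, and of Spag5 against the proliferation score; each dot is 1 mouse, red for the high title number range (65 mice) and blue for the low range (73 mice). Tekt1 rises along the score (r = 0.832), Ift88 less tightly (r = 0.693), and Spag5 is scattered over it (r = 0.246) but rises along the proliferation score (r = 0.855).

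Between the high and the low title number range 0 of 26 members and 0 of all 16621 genes (0.0%) passed in limma, the smallest adjusted p being 0.974. An unadjusted p under 0.05 was found for 689 genes, among them 1 member.

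Probes of 1 gene did not always agree. The 28 pairs of probes within the 13 members with more than 1 kept probe had a median r of 0.51, from -0.275 to 0.937. For Ift81 the representing probe had a slope of 0.098 on the ciliated marker score, but the other 2 probes had 0.154 (adjusted p = 8.66e-12 over all probes) and 0.138 (adjusted p = 1.38e-10), so the missing call of Ift81 holds for 1 of its 3 probes. For Ift20 the other 2 probes had slopes of 0.049 (adjusted p = 0.496) and -0.002 (adjusted p = 0.974), so that its call rests on 1 probe. Both Tekt1 probes (0.431 and 0.46), all 3 Dnali1 probes and both Ccdc39 probes rose. Of the 3 Spag6 probes 2 rose (0.395 and 0.28), and the third, detected in 29 mice, had a slope of 0.018 (adjusted p = 0.477). Older target names outside the rule differed too. TG737RPW, an older name of Ift88, rose by 0.162. Of the 2 probes of AI661311, a RefSeq synonym of Ift140, 1 rose by 0.073 and the other had a slope of -0.008 (adjusted p = 0.767), and BC037708, one of Ift52, had 0.034 (adjusted p = 0.25).

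A gene was said to have 2 separated levels where a mixture of 2 normal distributions fitted far better than 1, with means over 1 log2 apart. Of 26 members 1 had them, against 5.88% of all genes. Bbs4 lay around 6.35 log2 in 10 mice and around 8.231 in the others, with the lowest level, 5.77, in the line OR136. The second kept probe of Spag1 also split, around 5.632 in 67 mice and 6.65 in 71. It correlated with the representing Spag1 probe, which did not split, at r = -0.275, and its slope on the ciliated marker score was 0.13 (adjusted p = 0.104). The sequence of these probes was not used here.

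**Figure D5:**
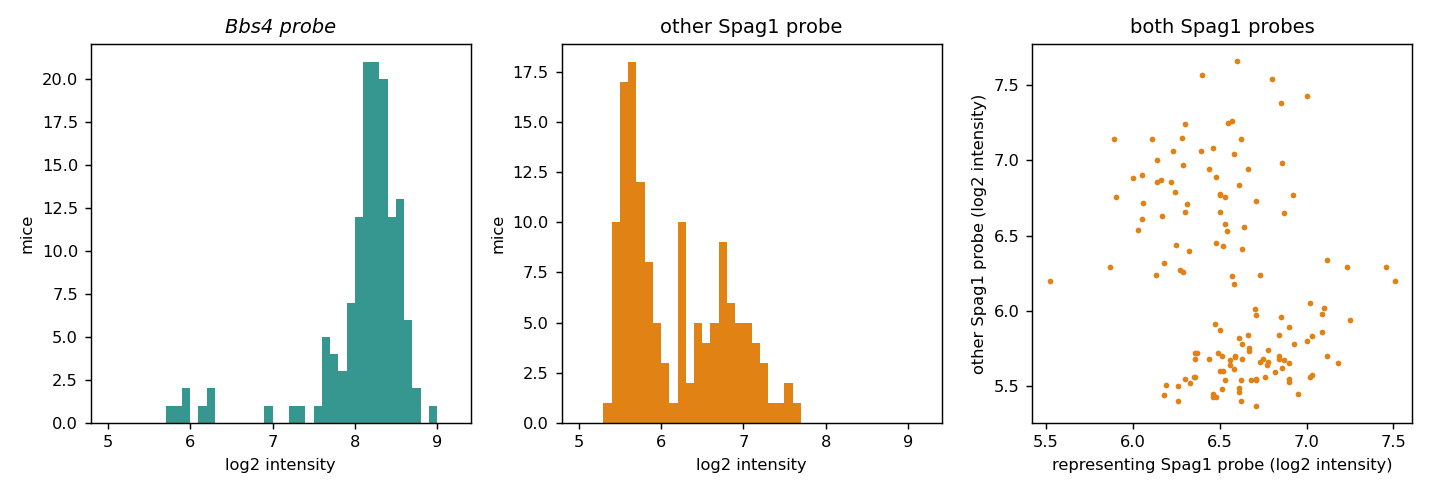
Number of mice at each log2 level of the Bbs4 probe (left) and of the other Spag1 probe (middle), and both Spag1 probes against each other, 1 dot per mouse (right). Bbs4 has 10 mice near 6.35 and the others near 8.231, and the other Spag1 probe has groups near 5.632 and 6.65 that the representing probe does not show.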

How the data were processed

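Lung RNA of 138 mice was measured on 1 array each. The authors deposited a scanner table with an intensity per probe, which was not normalized, and a detection p-value beside each intensity, per the file headers. They also deposited normalized log2 values, made with GenomeStudio and R 2.9.2 by RMA with quantile normalization, per the submitters' processing notes and the design text. Whether the background was corrected is not stated. All 138 columns of log2 values correlated best with their own array (r 0.9959 to 0.99996) and had a median of 5.57. Values of 10 or more carry 1 decimal.

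The 45281 probes were named through RefSeq (GRCm38.p6): 22864 by symbol, 11917 by synonym and 10500 by the file's name. Target SPAG11C/H was matched to Spag11b by synonym. A gene is its kept probe with the highest mean. A score is the mean z value of a list's kept genes, scaled to SD 1. Genes not in the list were then regressed on that score in limma 3.58.1 (lmFit and eBayes, R 4.3.3), with Benjamini-Hochberg adjustment over every gene tested and calls at 0.05. For separated levels the BIC had to drop by more than 10, the means had to differ by over 1 log2 and over 3 pooled SDs, and the smaller group had to hold 5% of mice. The number of arrays limits the precision. Other steps used scipy 1.17.1, numpy 2.4.6 and pandas 2.3.3 in Python 3.11.15. All were tested on simulated data.

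Every member may be named. Outside the rule, up to 12 genes per direction with the largest slopes past the threshold, detected in at least 69 mice, are named for the ciliated marker score and Foxj1, clone names passed over, with genes of the lists and pairs. The members, lists, pairs and tests were chosen with earlier results of these data known. Alternatives were neqc of the intensities (offset 16), other detection filters, the mean of a gene's probes, left-out mice, title number ranges and covariates.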

Additional observations from a re-analysis of the deposited data

How the results depend on the processing

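Over 15 alternatives none of the 380 slopes on the ciliated marker score changed sign past the threshold, 23 lost and 1 gained a call. With genes detected in all mice 12 of 16 rose on that score, against 7.01% of all genes. On Foxj1 9 of 15 rose, against 13%, and on the club score 8 of 16, against 8.7%. On the type 2 score 0 rose and 2 of 16 fell, against 12% and 15.7%. Fewer genes were tested in that setting. Within the high range 8 rose on Foxj1, and 1 rose and 1 fell on proliferation. Within the low range 4 rose and 1 fell on proliferation, and 1 rose on the mucous and 1 on the club score. On the type 2 score 0 rose and 0 fell there. Each range holds fewer mice, and the shares of all genes within it are given above. On the mucous score 0 fell with neqc, without a filter, with genes detected in all mice, with array covariates and within either range. In these settings 4.14% to 18.5% of all genes fell. Without a filter 5 rose, against 5.96%, and without the 2 mice of conflicting labels 6 rose, against 12.7%. The mean of probes let 1 fall on the club score, against 11.6% of all genes. With the ciliated marker score as a covariate, added after the data were seen, 2 fell on the mucous score, against 11.4% of all genes. In that setting 3 rose on the type 2 score, against 13.3%, and 0 on the club score, against 0.554%. The club score slopes of Bbs7 (-0.029), Ccdc39 (-0.082), Dnaic1 (-0.013), Dnali1 (-0.042), Spag8 (-0.005) and Tekt1 (-0.051) turned negative without passing. Other causes were not tested. The number of pairs past the threshold was 11 or 12 of 14 in all settings. No paired analysis was possible because the mice form 1 group with 1 mouse per line. The faint probes of Spag16 and Tekt3 lie close to the level of an undetected probe, which limits what their slopes can show.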

Other observations

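The 12 steepest genes outside the rule that rose with Foxj1 were SPRR2A, Reg3g, Muc5ac, Gp2, Nppa, Tff2, Fgl1, U46068, Muc5b, Clca1, Ccno and Ccna1. Tff2, a trefoil peptide of mucus, had a slope of 0.544 log2 per SD (adjusted p = 0.00221, limma) and Clca1 one of 0.487 (adjusted p = 0.0351). Ccno and Ccna1, a cyclin of the germ line, rose with it too, by 0.456 and 0.454. The steepest to fall were Rap1gds1 (-0.429, adjusted p = 0.0032) and Gbp2b (-0.383, adjusted p = 0.0369), both with 2 separated levels, then Igfbp3, with a slope of -0.346 (adjusted p = 0.000304), the T cell chemokine Ccl5 with -0.335 (adjusted p = 0.000133) and Nostrin, also with 2 separated levels, with -0.331. Muc5ac and Fgl1 had 2 separated levels over the mice.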
